A study of Mus musculus with 12 samples.

Results

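The SOCS family (suppressors of cytokine signalling) was followed through CD8+ T cells that met interferon, an antibody against CD3, both or neither. Its 8 genes, Socs1 to Socs7 and Cish, were found by gene symbol in the platform's probe annotation. They had 11 of the 23521 probe sets that carry exactly 1 symbol (22180 genes). Socs2, Socs3 and Cish had 2 probe sets each and the other 5 genes 1 each, and every member was kept, with no filter on low values. The rule uses gene names alone, and it was set with earlier results of these data known.

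The cells were CD8+ lymphocytes from spleens of C57BL/6 mice, purified by negative selection and kept for 6 h before total RNA was hybridised to single-channel arrays. There were 4 groups of 3 arrays: cells mock-treated with phosphate-buffered saline (PBS), cells given PBS plus IFN-4a, cells given anti-CD3 alone, and cells given anti-CD3 plus IFN-4a. IFN-4a is the type I interferon preparation of the series, and anti-CD3 engages the T cell receptor complex. Below, "resting" stands for the PBS cultures and "stimulated" for those with anti-CD3. The labels name no transgene or mutant allele, give no age, dose or number of animals, and do not say whether replicate arrays came from separate mice or cultures, so the p-values reflect the spread of these arrays alone, which may be technical.

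Cytokines such as interferons and interleukins bind receptors that carry Janus kinases, and these phosphorylate STAT transcription factors. SOCS genes are themselves switched on by STATs, and their proteins act back on the same pathway as brakes. Each SOCS protein has an SH2 domain that binds phosphorylated tyrosines and a SOCS box that recruits elongins B and C and a cullin, which together form a ubiquitin ligase. SOCS1 and SOCS3 also block Janus kinases directly. In CD8+ T cells SOCS1 restrains responses to interferons and to interleukins of the common gamma chain family, and CIS, the product of Cish, is known as a target of STAT5 and as a brake on T cell receptor signalling.

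RefSeq's promoter table for GRCm38.p6 held 4 of the 8 members, Socs1, Socs3, Socs4 and Cish. The 250 bases before the start of Socs1 and Cish are shown because these members changed most, and a short stretch is shown for Socs3 because it holds a match. The search covered both strands and 3 motifs, where N is any base. TTCNNNGAA, and its longer form in which 4 bases separate TTC from GAA, resemble the site bound by STAT dimers. GAAA followed by any 2 bases and GAAA resembles the interferon-stimulated response element. Capitals mark matches. The Socs1 window lies directly upstream of the annotated gene on the minus strand (chr16:10785537-10785786), the Cish window directly upstream on the plus strand (chr9:107296409-107296658). The Socs3 stretch (chr11:117969501-117969530, minus strand) lies inside the outer bounds of the annotated gene (chr11:117966079-117970336), since the table uses one of several starts.
Socs1: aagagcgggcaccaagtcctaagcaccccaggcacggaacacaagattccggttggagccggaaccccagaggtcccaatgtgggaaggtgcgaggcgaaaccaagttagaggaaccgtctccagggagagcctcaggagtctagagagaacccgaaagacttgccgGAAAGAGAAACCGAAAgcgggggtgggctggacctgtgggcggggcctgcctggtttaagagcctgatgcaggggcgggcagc
Socs3: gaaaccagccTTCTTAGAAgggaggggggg
Cish: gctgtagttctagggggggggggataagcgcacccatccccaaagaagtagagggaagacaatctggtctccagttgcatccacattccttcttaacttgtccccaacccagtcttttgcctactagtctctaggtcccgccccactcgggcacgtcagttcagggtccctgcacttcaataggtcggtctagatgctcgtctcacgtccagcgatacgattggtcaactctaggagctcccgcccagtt
The Socs1 window held the interferon-type motif 2 times, as GAAAGAGAAA at positions -83 to -74 and as GAAACCGAAA at -77 to -68 relative to the start, overlapping by 4 bases. The Socs3 window held TTCNNNGAA 1 time, as TTCTTAGAA at positions -154 to -146. No match to these letters lay in the Cish or Socs4 windows. Of 32851 promoter windows of the same length, 2.98% held the interferon-type motif, 7.02% TTCNNNGAA and 5.85% its longer form, and 14.8% held any of the 3 motifs. A match is a string of letters and not a shown binding site.

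The deposited values were centred per probe set on the median over the 12 arrays, so 0 is that probe set's own middle and no level can be compared between genes. They were taken as log2, and folds rest on that. The decimal steps of the values show which probe sets had uncentred values of at least 8 on their 6 highest arrays, which held for 30.1% of those tested. The mark is a lower bound for a single probe set, orders no levels between genes and measures no purity, and a gene high in 2 of the 4 groups can pass through those alone. It held for all 6 CD8 T cell markers (Cd8a, Cd8b1, Cd3e, Cd3d, Cd3g and Thy1), and for none of 5 measured B cell, none of 5 CD4 T cell and none of 5 granulocyte markers, none of 3 of erythroid cells and platelets, and 1 each of 4 NK cell (Eomes) and 6 myeloid (Cd68) markers. Among the members it held for Socs1, Socs4, the first Socs3 probe set and the first Cish probe set. Known target genes moved with the labelled treatments, but not with these alone. IFN-4a raised 10 of 11 interferon check genes in resting and 9 in stimulated cells, and anti-CD3 raised all 11 early activation check genes with and without IFN-4a. Anti-CD3 without IFN-4a also raised 8 of the 11 interferon check genes, and with IFN-4a it raised 1 and lowered 4. Of these 8, Stat2 (log2 -0.05), Ifit1 (-0.22) and Usp18 (0.02) lost their call under quantile normalization. IFN-4a raised 3 of the early activation check genes in resting cells (1 higher and 7 lower under quantile normalization) and 1 in stimulated cells.

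**Figure D1:**
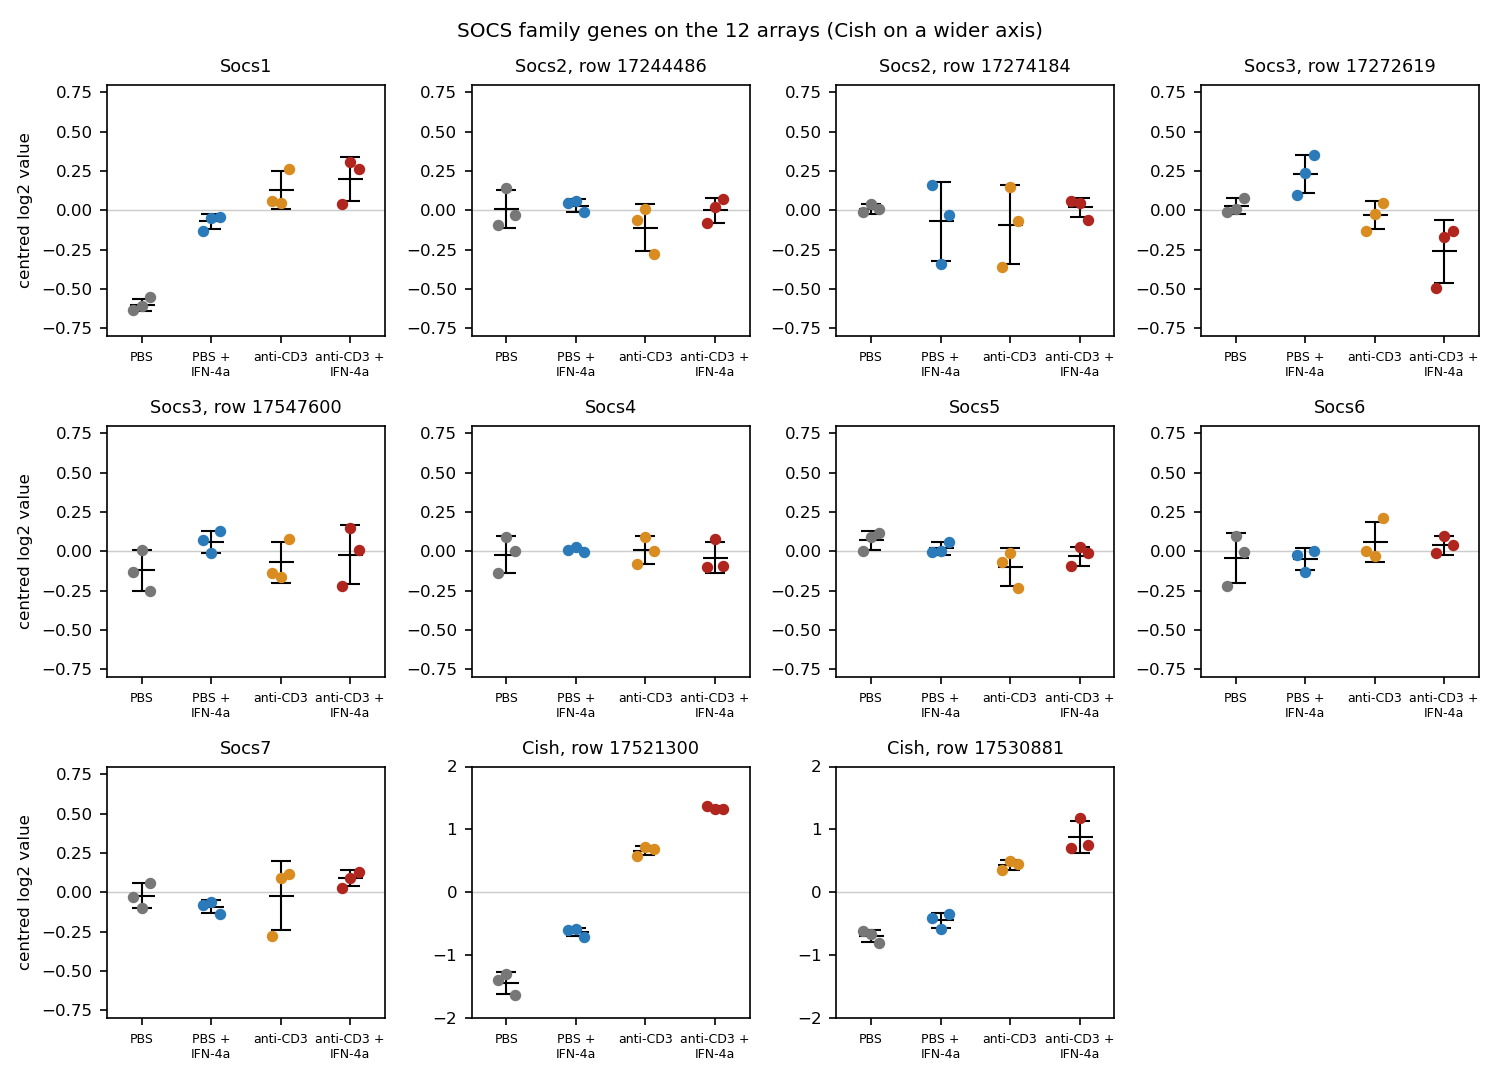
Centred log2 value of each SOCS family probe set (one panel each) on the 12 arrays, by group. Points are arrays, horizontal bars the group mean and whiskers the SD (n = 3). The Cish panels have a wider axis. Cish climbs in 3 steps from PBS to anti-CD3 plus IFN-4a, Socs1 is low on the 3 PBS arrays only, and the panels of Socs2 and Socs4 to Socs7 stay within 0.36 of 0.

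Cish was the member that changed most. Its RNA was lowest in resting cells, higher with IFN-4a, higher again with anti-CD3 and highest with both. On the first Cish probe set (17521300, Entrez gene 12700) the PBS arrays read -1.39, -1.29 and -1.63 and the PBS plus IFN-4a arrays -0.59, -0.58 and -0.71. The anti-CD3 arrays read 0.58, 0.72 and 0.69 and the anti-CD3 plus IFN-4a arrays 1.37, 1.33 and 1.32. No array of one group overlapped another group. The group means spanned 2.77 on the log2 scale, more than 99.6% of all probe sets tested, against a median span of 0.21 over all probe sets and 0.18 over the 11 of the family.

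Anti-CD3 raised Cish on this probe set 4.28-fold without IFN-4a (log2 2.10, SE 0.08, limma adjusted p = 2.16e-10) and 3.9-fold with it (log2 1.96, SE 0.08, limma adjusted p = 3.99e-10). IFN-4a raised it 1.75-fold in resting cells (log2 0.81, SE 0.08, limma adjusted p = 1.39e-05) and 1.6-fold in stimulated cells (log2 0.67, SE 0.08, limma adjusted p = 0.000133). Under quantile normalization the step in resting cells was 0.50 and kept its call (limma adjusted p = 9.98e-05). The interaction, which subtracts the resting from the stimulated IFN-4a change, was -0.14 (95% interval -0.38 to 0.11, limma adjusted p = 0.738). The interval leaves room for a somewhat smaller or a slightly larger IFN-4a step in stimulated cells.

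The second Cish probe set (17530881) gave the same order of the group means with smaller steps. Its PBS arrays read -0.61, -0.66 and -0.80 and its PBS plus IFN-4a arrays -0.40, -0.58 and -0.35. Its anti-CD3 arrays read 0.35, 0.50 and 0.45 and its anti-CD3 plus IFN-4a arrays 0.70, 1.18 and 0.75. Again no groups overlapped, but the IFN-4a groups sat close to their controls. Anti-CD3 raised this probe set by 1.13 without IFN-4a (SE 0.11, limma adjusted p = 2.05e-06) and by 1.32 with it (SE 0.11, limma adjusted p = 5.03e-07).

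For IFN-4a the 2 Cish probe sets gave different calls. In resting cells the second stood 0.24 higher with IFN-4a (95% interval 0.01 to 0.48), which did not pass (limma adjusted p = 0.174). In stimulated cells it was 0.44 higher (SE 0.11) and passed narrowly (limma adjusted p = 0.0466). That call was lost in 10 of the 12 fits that left out 1 array (limma adjusted p up to 0.128) and held without the second PBS plus IFN-4a array or the first anti-CD3 plus IFN-4a array. Without the second anti-CD3 plus IFN-4a array the change was 0.29 (limma adjusted p = 0.0959). The call was also lost with the replicate number as a block (0.0542), with only the 2 groups in the fit (0.12) and with all rows tested (0.0771). With both probe sets averaged to 1 value per gene, Cish rose by 0.53 in resting (limma adjusted p = 0.000481) and by 0.56 in stimulated cells (0.000616). The files do not say which part of the gene each probe set covers.

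Socs1, the main brake on interferon signalling in the family, was low in untreated cells and higher under every treatment. On its probe set (17328104, Entrez gene 12703) the PBS arrays read -0.63, -0.61 and -0.55 and the PBS plus IFN-4a arrays -0.13, -0.05 and -0.04. The anti-CD3 arrays read 0.06, 0.05 and 0.26 and the anti-CD3 plus IFN-4a arrays 0.04, 0.31 and 0.26. The 3 PBS arrays stood apart from the other 9, the PBS plus IFN-4a arrays lay below all stimulated arrays, and both stimulated groups overlapped.

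IFN-4a raised Socs1 1.44-fold in resting cells (log2 0.53, SE 0.08, limma adjusted p = 0.000542). In stimulated cells the IFN-4a difference was 0.07 (95% interval -0.09 to 0.24, limma adjusted p = 0.725). Anti-CD3 raised Socs1 1.65-fold without IFN-4a (log2 0.73, SE 0.08, limma adjusted p = 4.78e-06) and 1.21-fold with it (log2 0.28, SE 0.08, limma adjusted p = 0.0148). The last call ended without the first PBS plus IFN-4a array (limma adjusted p = 0.0612) and without the second (0.0708) or the third (0.0615) anti-CD3 plus IFN-4a array.

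The IFN-4a step of Socs1 was smaller in stimulated than in resting cells by 0.45 (95% interval of the interaction -0.69 to -0.22), the largest interaction among the members. It did not pass the threshold over all probe sets (limma adjusted p = 0.0868, 0.00117 before adjustment). It passed when only probe sets at 8 or above were tested (adjusted p = 0.0225), and its adjusted p ranged from there to 0.224 over the alternatives. The IFN-4a effect on Socs1 was therefore not shown to differ between resting and stimulated cells.

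Socs3, which acts chiefly on receptors of the interleukin-6 family, was lower with anti-CD3 plus IFN-4a than with PBS plus IFN-4a. This held on 1 of its 2 probe sets. On its first probe set (17272619, Entrez gene 12702) the PBS arrays read -0.01, 0.01 and 0.08 and the PBS plus IFN-4a arrays 0.10, 0.24 and 0.35. The anti-CD3 arrays read -0.13, -0.02 and 0.05 and the anti-CD3 plus IFN-4a arrays -0.49, -0.17 and -0.13. The PBS plus IFN-4a arrays were above all others and the anti-CD3 plus IFN-4a arrays at the bottom, the highest of these meeting the lowest anti-CD3 array.

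In the presence of IFN-4a, anti-CD3 lowered this Socs3 probe set 1.4-fold (log2 -0.49, SE 0.09, limma adjusted p = 0.000975). Without IFN-4a the difference was -0.06 (95% interval -0.26 to 0.14, limma adjusted p = 0.726). The IFN-4a differences were 0.20 in resting cells (limma adjusted p = 0.186) and -0.23 in stimulated cells (limma adjusted p = 0.253), and neither passed. Their contrast, the interaction, was -0.43 (95% interval -0.72 to -0.15, limma adjusted p = 0.201) and did not pass either.

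The second Socs3 probe set (17547600) did not show the decrease. Its arrays ran from -0.25 to 0.01 with PBS, -0.01 to 0.13 with PBS and IFN-4a, -0.16 to 0.08 with anti-CD3 and -0.22 to 0.15 with both, and these ranges overlapped. Its anti-CD3 difference in the presence of IFN-4a was -0.08 (95% interval -0.29 to 0.13, limma adjusted p = 0.651). The mean of both probe sets fell by 0.29 (limma adjusted p = 0.0236), so the Socs3 call held on the gene mean at a smaller size.

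**Figure D2:**
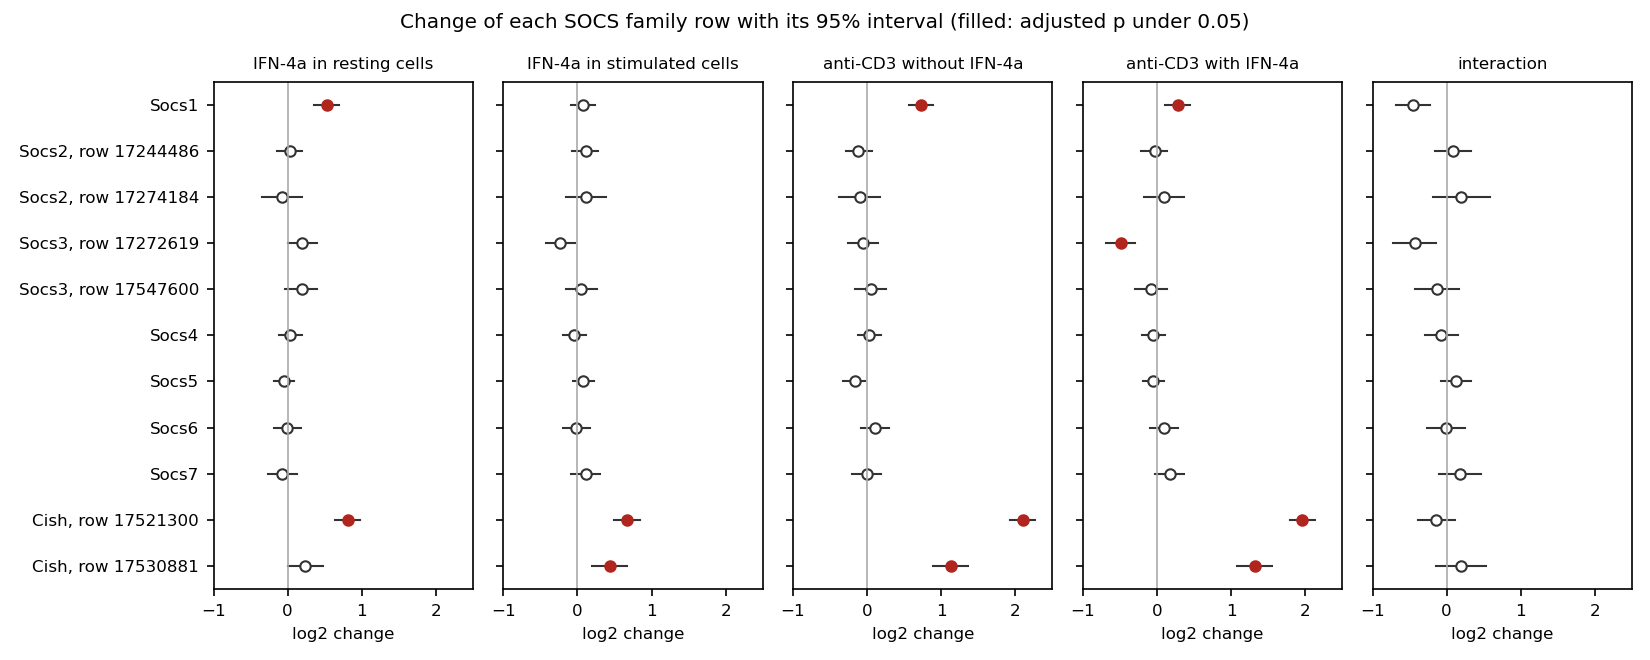
Log2 change of each SOCS family probe set in the 5 comparisons, with its 95% interval from limma. Filled points passed an adjusted p under 0.05 over 23521 probe sets. The filled points are those of Socs1, Cish and, for anti-CD3 with IFN-4a, the first Socs3 probe set, and no point is filled in the interaction panel.

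No probe set of Socs2, Socs4, Socs5, Socs6 or Socs7 passed in any of the 5 comparisons. Socs2, which limits growth hormone signalling and like Cish is linked to STAT5, had arrays between -0.28 and 0.14 on its first probe set (17244486) and between -0.36 and 0.16 on its second (17274184). Its 95% intervals for the 4 treatment comparisons lay within -0.29 and 0.28 on the first and within -0.38 and 0.38 on the second. These intervals leave out a 2-fold change of the measured values in either direction. Neither Socs2 probe set had the mark of 8 or above, and centred values hold no signal over background. The intervals therefore do not exclude such a change of the RNA itself.

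Socs4 had the narrowest spread of the family, with group means spanning 0.05, a smaller span than all but 3.58% of probe sets. Its 95% intervals for the 4 treatment comparisons lay within -0.20 and 0.19, and that of the interaction was -0.29 to 0.15. Socs6, which is linked to signalling by receptor tyrosine kinases, had treatment intervals within -0.20 and 0.29 and an interaction interval of -0.27 to 0.25. Neither had groups apart in any comparison.

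Socs5 and Socs7 came nearer to the threshold. The Socs5 arrays lay between 0.00072 and 0.12 with PBS and between -0.23 and -0.01 with anti-CD3, without overlap. The difference was -0.17 (95% interval -0.32 to -0.03, limma adjusted p = 0.0592). It passed without the first PBS array (limma adjusted p = 0.0451) and without the second anti-CD3 array (0.0352).

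The Socs7 arrays lay between -0.14 and -0.06 with PBS and IFN-4a and between 0.03 and 0.13 with anti-CD3 and IFN-4a, also without overlap. The difference was 0.18 (95% interval -0.02 to 0.37, limma adjusted p = 0.192). It passed without the first anti-CD3 array (limma adjusted p = 0.0386), which read -0.28 against 0.09 and 0.12 for the others of its group, and with only the 2 groups in the fit (0.0466).

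Counted over the family, IFN-4a in resting cells raised 2 of 11 probe sets (Socs1 and the first of Cish) and lowered none, against 12.2% of all probe sets called, 4.17% higher and 8.08% lower. In stimulated cells it raised 2 of 11, both of Cish, against 3.32% of all called, 1.97% higher and 1.36% lower. Anti-CD3 without IFN-4a raised 3 of 11 (Socs1 and both of Cish) and lowered none, against 31.4% of all called, 13.9% higher and 17.5% lower. With IFN-4a it raised the same 3 and lowered 1, of Socs3, against 27.3% of all called, 12.8% higher and 14.5% lower. In the interaction none of 11 passed, against 0.855% of all probe sets called, 0.264% higher and 0.591% lower, while 2 of 11 had an unadjusted p under 0.05 in limma.

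Across the family, sizes of change were compared with those of all probe sets. The median absolute log2 change of its 11 probe sets was 0.0847 with IFN-4a in resting cells (0.0946 over all probe sets), 0.108 in stimulated cells (0.0714), 0.105 with anti-CD3 alone (0.117) and 0.0932 with anti-CD3 in the presence of IFN-4a (0.102). Groups did not overlap in 4, 2, 4 and 5 of the 11 probe sets, against 30.4%, 21.1%, 40.8% and 37.9% of all probe sets. These values are near those of all probe sets, and no result about the family as a whole is read from them. IFN-4a in resting cells and anti-CD3 alone share the PBS arrays.

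**Figure D3:**
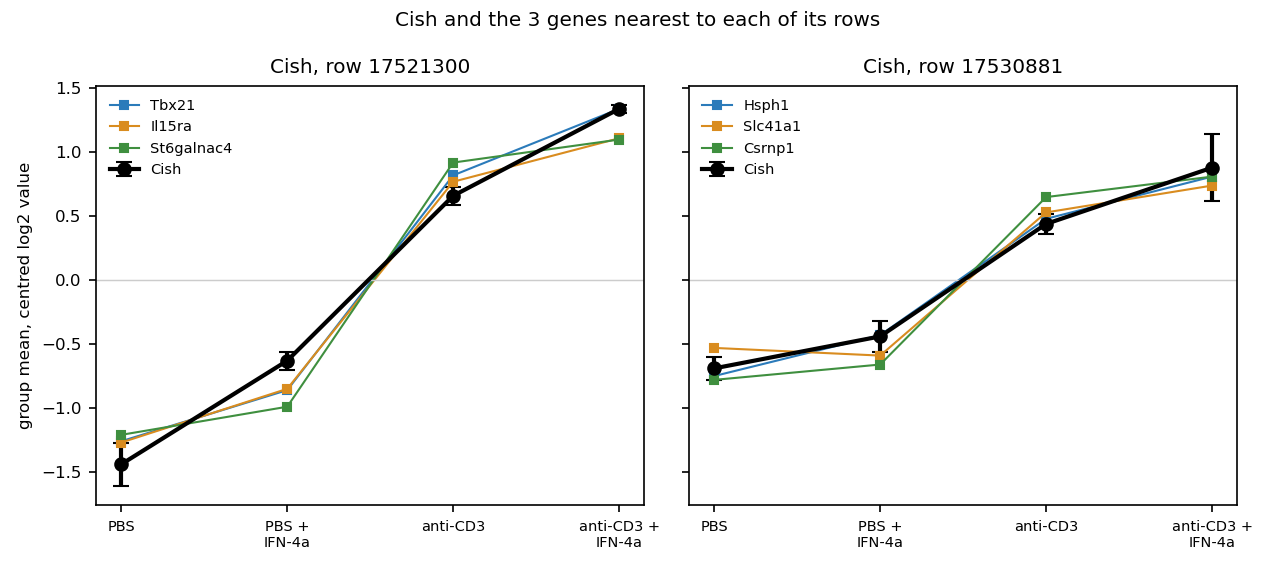
Group means (centred log2) of each Cish probe set, black with SD whiskers (n = 3), beside the 3 named genes with the smallest root mean square difference from it over the 12 arrays. All curves climb from resting to stimulated cells, and all are highest in cells given both treatments.

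The genes whose pattern lay nearest to Cish were sought over the 12 arrays by root mean square difference on the centred log2 scale. For the first probe set they were Tbx21 (0.19), which encodes the effector transcription factor T-bet, Il15ra (0.20), which encodes the interleukin-15 receptor alpha chain, and St6galnac4 (0.30), a sialyltransferase gene. The group means of Tbx21 were -1.26, -0.86, 0.82 and 1.34 with PBS, with IFN-4a only, with anti-CD3 only and with both. For the second they were Hsph1 (0.13), a chaperone gene, Slc41a1 (0.17), a magnesium transporter gene, and Csrnp1 (0.19). Both Cish probe sets differed from each other by 0.48, more than from these genes. The other members spanned less than 1 on the log2 scale and were not searched.

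**Figure D4:**
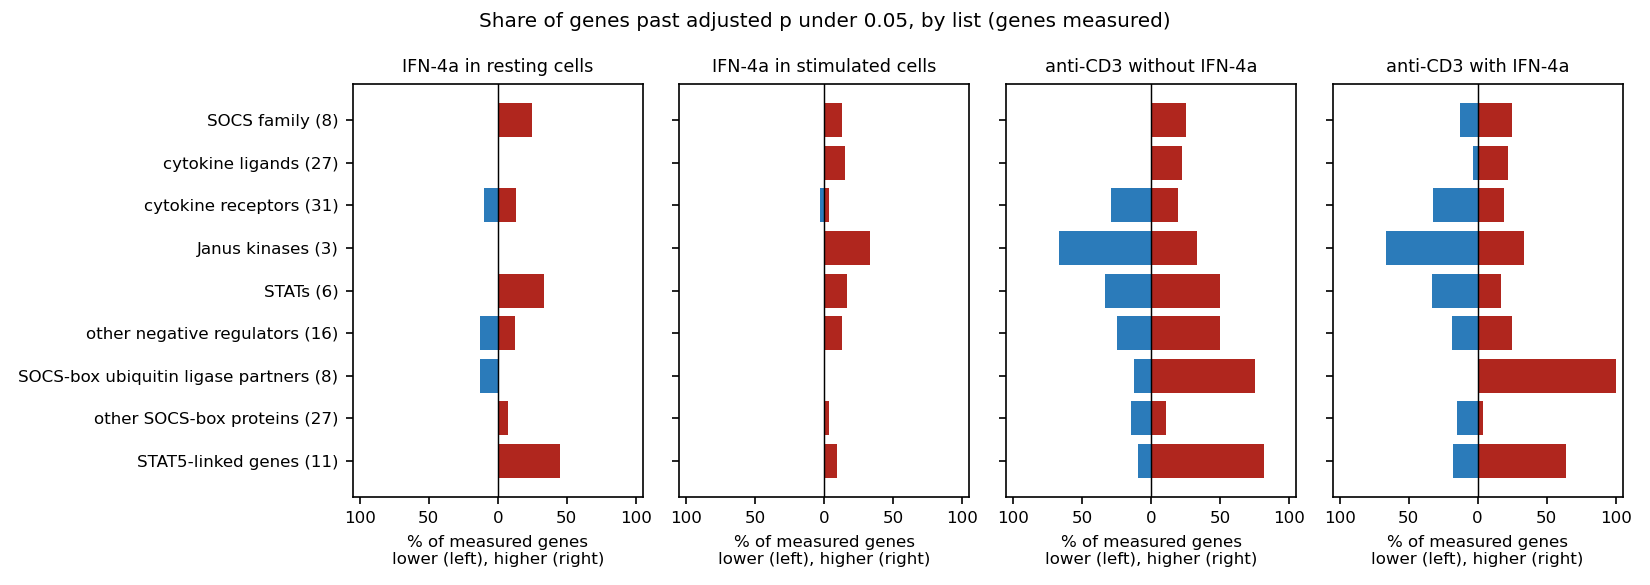
Share of measured genes that passed an adjusted p under 0.05, higher to the right and lower to the left, for the SOCS family and companion lists of its pathway in 4 comparisons. The number of genes measured is in brackets. The SOCS-box ubiquitin ligase partners have all 8 genes higher with anti-CD3 in the presence of IFN-4a (6 to 8 called with 1 array left out), while the SOCS family has 2 higher and 1 lower.

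The other genes of the pathway were counted in lists by role. A gene counted as higher or lower if any of its probe sets was called so. With IFN-4a, 4.17% of all probe sets were called higher and 8.08% lower in resting cells (1.97% and 1.36% in stimulated cells). With anti-CD3, 13.9% were called higher and 17.5% lower without IFN-4a (12.8% and 14.5% with it). Among 27 cytokine ligands, anti-CD3 raised 6 without IFN-4a, with a list median of -0.01 (-0.04 over all probe sets), and 6 with it, where 1 was lower. Examples without IFN-4a were Ifng, the interferon gamma gene, by 3.93 and Il2, the interleukin-2 gene, by 2.28. IFN-4a raised none of the 27 in resting cells in limma, where other settings called up to 2 (quantile normalization 1 higher and 1 lower, and without the third anti-CD3 array 2 higher). In stimulated cells it raised 4, with Lif higher by 1.26, Ifng by 1.18 and Il3 by 1.03 on the log2 scale.

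Among 31 cytokine receptor genes anti-CD3 raised 6 and lowered 9 without IFN-4a, and 6 and 10 with it. The list medians were -0.04 and -0.06 (-0.04 and -0.03 over all probe sets). The raised ones included Il2ra (log2 3.93 without IFN-4a), the interleukin-2 receptor alpha gene, Il12rb1 (2.38) and Il15ra (2.05). The lowered ones included Ifnar1 and Ifnar2, which encode the type I interferon receptor, in both settings. IFN-4a raised 4 and lowered 3 in resting cells (1 and 3 under quantile normalization), with Il12rb2 at 1.19 and Il27ra at -0.43. In stimulated cells it raised 1, Il10ra by 0.47, and lowered 1, Il27ra (log2 -0.33). The call of Il10ra was lost without the third anti-CD3 plus IFN-4a array (limma adjusted p = 0.0522), and array weights called 2 higher and 2 lower. Il2ra stood at 0.98 in resting cells (limma adjusted p = 0.000255), a call lost under quantile normalization (log2 0.13).

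Among the 3 measured Janus kinase genes, anti-CD3 without IFN-4a lowered Jak1 (log2 -0.60) and Tyk2 (-0.50) and raised Jak2 (0.40), and all 3 changed the same way with IFN-4a. IFN-4a changed none of them in resting cells (1 was higher without the third PBS plus IFN-4a array) and raised Jak2 by 0.28 in stimulated cells, a call lost without the third anti-CD3 array (limma adjusted p = 0.0607) or the third anti-CD3 plus IFN-4a array (0.0557). Of 6 STAT genes, IFN-4a raised Stat2 by 2.20 and Stat3 by 0.36 in resting cells and 1, Stat2, by 1.53 in stimulated cells. With IFN-4a present, anti-CD3 raised Stat5a by 0.57 and lowered Stat5b (log2 -0.62) and Stat4 (-0.48).

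Among 16 other negative regulators of the pathway, IFN-4a raised 2 in each state, both also in the interferon check list. They were Usp18, whose product keeps the kinase off the interferon receptor, by 4.76 in resting and 3.47 in stimulated cells, and Isg15, the ubiquitin-like modifier gene, by 3.48 and 3.26. It lowered Sh2b3 (log2 -0.29, lost under quantile normalization, limma adjusted p = 0.0573) and Ptpn1 in resting cells and called none lower in stimulated cells. Anti-CD3 without IFN-4a raised 8 and lowered 4 of the 16, and with IFN-4a raised 4 and lowered 3. The list medians were 0.14 and -0.01 (-0.04 and -0.03 over all probe sets). Ptpn6, the SHP-1 phosphatase gene, rose by 1.15 and by 1.13, and Sh2b3, an adaptor gene that restrains Janus kinase signalling, by 0.75 and 1.10.

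Of 8 measured genes of the ubiquitin ligase that SOCS boxes recruit, anti-CD3 raised 6 without IFN-4a and 8 with it, against 13.9% and 12.8% of all probe sets called higher, with list medians of 0.38 and 0.34 (-0.04 and -0.03 over all probe sets). Without IFN-4a the changes included Arih2 at 0.78, a ligase gene that works with cullin-5, Cul2 at 0.61 and 1 of 2 Cul5 probe sets at 0.56. The other Cul5 probe set was called lower, and the mean of both stood at 0.13 (limma adjusted p = 0.17). With 1 array left out, the list had 6 to 8 calls with anti-CD3 both without and with IFN-4a, the 2 directions counted together. IFN-4a changed 1 partner in resting cells, Elob, the elongin B gene, by -0.33 (2 were lower without the first PBS array), and none in stimulated cells.

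Of 27 other genes with a SOCS box, IFN-4a raised Asb13 and Wsb2 in resting cells and Asb13 in stimulated cells. Wsb2 stood at 0.26 (limma adjusted p = 0.027) and lost its call under quantile normalization (0.0523) and without single arrays, namely the first or the second of PBS and the first or the third of PBS plus IFN-4a (up to 0.0798). In stimulated cells array weights called 3 higher, and 2 were called without the second anti-CD3 plus IFN-4a array. Asb13 rose by 1.34 in resting cells (2.54-fold, SE 0.07, limma adjusted p = 7.94e-09) and by 0.85 in stimulated cells (1.8-fold, SE 0.07, limma adjusted p = 2.16e-06). Its interaction passed too (log2 -0.50, limma adjusted p = 0.0236), but lost its call under quantile normalization (0.18) and without the first or the second array of PBS, of PBS plus IFN-4a or of anti-CD3, or the first of anti-CD3 plus IFN-4a (up to 0.0773). Anti-CD3 without IFN-4a raised 3 and lowered 4 of these 27 genes, against 13.9% of all probe sets called higher and 17.5% lower, and raised 2 and lowered 2 when the second anti-CD3 array was left out. With IFN-4a it raised 1 and lowered 4, against 12.8% and 14.5%. The list median was -0.06 in both (-0.04 and -0.03 over all probe sets).

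Of 11 genes linked to STAT5, the factor for which Cish is a known target, anti-CD3 raised 9 and lowered 1 without IFN-4a (list median 0.88) and raised 7 and lowered 2 with it (median 0.48). Among all probe sets 13.9% were called higher and 17.5% lower without IFN-4a, and 12.8% and 14.5% with it. Myc rose by 2.75 and 2.61 and Lta by 2.79 and 2.40. Myc and Il2ra were also in the early activation check list. IFN-4a raised 5 of the 11 STAT5-linked genes in resting cells (4.17% of all probe sets), among them Pim2 by 1.83 and Ccnd2 by 1.47. In stimulated cells it raised 1 (3 under quantile normalization), Osm by 0.40, a call lost without the third anti-CD3 array (limma adjusted p = 0.0759), without the first (0.0528) or the third (0.0797) anti-CD3 plus IFN-4a array, and with only the 2 groups in the fit (0.0506). In the interaction 4 of the 11 were called lower (0.591% of all probe sets), among them Pim2 (-1.60) and Ccnd2 (-1.25), and the interaction of Cish did not pass. With 1 array left out, 3 to 4 of the list were called. The Il2ra call (-0.97, limma adjusted p = 0.0247) held in 10 of 20 alternatives. Under quantile normalization it was lost (-0.30, limma adjusted p = 0.668).

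Markers of the studied and of other cell types moved beside these changes. Over the 6 CD8 T cell markers the mean per array lay between 0.23 and 0.27 with PBS, between 0.12 and 0.14 with PBS plus IFN-4a, between -0.18 and -0.12 with anti-CD3 and between -0.17 and -0.12 with both. IFN-4a in resting cells lowered 2 of the 6, Thy1 (log2 -0.63, limma adjusted p = 3.27e-05) and Cd3d (-0.24, 0.0111), and anti-CD3 lowered 4 of the 6 with and without IFN-4a. The mean of the 4 NK cell markers lay between -0.22 and -0.15 with PBS, between -0.20 and -0.06 with PBS plus IFN-4a, between 0.10 and 0.18 with anti-CD3 and between 0.24 and 0.36 with both, with Eomes, which activated CD8+ T cells also express, called higher (log2 1.59 without IFN-4a) and Klre1 lower (-0.25) with anti-CD3. IFN-4a in stimulated cells raised Eomes too, by 0.46. Array means of the B cell, CD4 T cell and myeloid lists lay between -0.11 and 0.11 in all 4 groups, while single members were called with anti-CD3. Of 5 B cell markers Cd79b was lower (log2 -0.69 without and -0.43 with IFN-4a), and Cd79a with IFN-4a (-0.21). Of 5 CD4 T cell markers Cd40lg was higher (1.04 and 0.74) and Ctla4 lower (-0.79 and -0.65). Of 6 myeloid markers Itgax was higher (0.56 and 0.41), and Cd68 with IFN-4a (0.25). Of the 5 granulocyte and the 3 erythroid and platelet markers 1 each, Elane and Itga2b, was lower without IFN-4a. Over the alternative settings, the call of Cd68 held in 8 of 21 and that of Cd79a in 12 of 20. Those of Elane, Itga2b and Klre1 without IFN-4a held in 16, 11 and 19 of 20. The part of these marker shifts in the Cish, Socs1 and Socs3 results was not tested. In RNA from a whole population fewer expressing cells and less RNA per cell cannot be told apart.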

How the data were processed

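Total RNA of 12 samples (4 groups of 3) was labelled with biotin by a WT Plus kit, per the labels' protocols. The authors' deposited values, taken here as log2, were centred per probe set (largest absolute row median 5e-07). The log base, summarization and normalization between arrays: not given in the sources used here. Array medians lay between -0.0157 and 0.0165, the lowest correlation between arrays of one group was 0.727 and the highest between groups 0.543. The number of arrays, not a read depth, limits the precision. Of 33793 rows, 1814 with several symbols and 8458 with none were left out, and no row with several symbols named a member. Symbols of all 8 members matched RefSeq by Entrez identifier.

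Each of 23521 rows was fitted in limma 3.58.1 (R 4.3.3) as group means over 12 arrays (8 residual and 4.95 prior degrees of freedom), with 5 contrasts, two-sided moderated tests and Benjamini-Hochberg adjustment over all rows; calls are adjusted p under 0.05. Rows were kept apart because centred values hold no level by which to choose one per gene. A stored single-precision value of 8 or above moves in fixed binary steps, which were sought with a tolerance of 0.15 of a step. The fit was checked on simulated data. Members and lists were chosen with earlier results of these data known. Companion genes are named by a rule, the 3 largest absolute changes per list and comparison; Ifnar1, Ifnar2, Ptpn1 and the marker genes were named after their calls were seen. Alternatives were the replicate number as a block, quantile normalization, array weights, only the 2 groups compared, robust eBayes, 1 value per gene (mean of rows, or row with the highest mean), a brightness filter, all rows, and each array left out.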

Additional observations from a re-analysis of the deposited data

How the results depend on the processing

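Of the 11 called changes of members, 9 kept their call under every alternative in which their probe set had a value. The exceptions, the second Cish probe set with IFN-4a in stimulated cells and Socs1 with anti-CD3 in the presence of IFN-4a, are described with their genes. The replicate block ended the first of these (log2 0.44, adjusted p = 0.0542) and no other call of a member. Same-numbered arrays of different groups had correlations of their deviations from -0.022 to 0.27, -0.079 to 0.1 and -0.0044 to 0.22 for numbers 1, 2 and 3. Of the 12 arrays, 9 correlated best, among arrays of the other groups, with one of their own number. The labels do not say what the numbers mark, so the main fit did not pair the samples. Whether the numbers mark a shared batch was not tested. With the row of the highest mean per gene, 1 member gene was called for IFN-4a in resting cells in place of 2, because the second Cish probe set was taken. The first had no value in that setting. A mean of centred values holds no level, so that setting does not choose the more highly expressed row. Among probe sets at 8 or above alone, 1 member gene (Socs1) passed the interaction and 393 probe sets were called there, against 201 in the full fit. Quantile normalization called 110 in the interaction, 45 higher and 65 lower, against 62 and 139. With array weights 1449 were called for IFN-4a in stimulated cells, 666 higher and 783 lower, against 782 (463 and 319). With only the 2 groups compared the interaction has no value. Without single arrays the calls ran from 1794 (without the second PBS plus IFN-4a array) to 3052 for IFN-4a in resting cells, against 2880, and from 499 (without the third anti-CD3 plus IFN-4a array) to 781 in stimulated cells, where leaving out the second or the third anti-CD3 array gave 502 and 520.

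The direction turned in 39 recomputed member values, none of which was called in either setting. Under quantile normalization these were Socs7 with anti-CD3 alone (0.01) and the interactions of Socs6 (0.0038) and the first Cish probe set (0.04). Array weights turned Socs7 with anti-CD3 alone (0.02) and Socs6 with IFN-4a in stimulated cells (0.02) and in the interaction (0.04). The mean of a gene's rows differed in sign from the first Socs2 probe set with IFN-4a in resting cells (-0.03) and with anti-CD3 and IFN-4a (0.03), from the second Socs3 probe set with IFN-4a in stimulated cells (-0.09) and with anti-CD3 alone (-0.0033), and from the first Cish probe set in the interaction (0.03). Without single arrays, IFN-4a in resting cells gave -0.02 to 0.09 and -0.20 to 0.05 for the first and second Socs2 probe sets, -0.03 to 0.08 for Socs4 and -0.10 to 0.06 for Socs6. In stimulated cells it gave -0.02 to 0.23 for the second Socs2 and -0.03 to 0.15 for the second Socs3 probe set, -0.10 to 0.0024 for Socs4, -0.06 to 0.06 for Socs6 and -0.02 to 0.18 for Socs7. Anti-CD3 alone gave -0.23 to 0.03 for the second Socs2 and -0.03 to 0.12 for the second Socs3 probe set, -0.04 to 0.08 for Socs4 and -0.07 to 0.13 for Socs7. Anti-CD3 with IFN-4a gave -0.07 to 0.01 and -0.05 to 0.20 for the Socs2 probe sets and -0.17 to 0.02 for the second of Socs3. The interaction gave -0.0012 to 0.14 for the first Socs2 probe set and -0.08 to 0.08 for Socs6.

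Of 124 called changes of companion and marker genes recomputed, those that turned were Stat2 (-0.05) and Ifit1 (-0.22) with anti-CD3 alone under quantile normalization. Under the same setting the anti-CD3 change of Usp18 without IFN-4a (0.02) lost its call. Over all alternatives, 82 of 2562 recomputed values of these changes kept their direction but lost the call. The cause of these shifts was not tested. Centred values hold no signal over background, and changes smaller than the intervals given above could not be resolved with 3 arrays a group.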
